A study of Mus musculus with 33 samples.

Results

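Early Eomes-type intermediate progenitors and neuroblasts are the cells of the adult mouse hippocampus that stand between dividing precursors and young granule neurons. Members were taken from a deposited table in which every cell had been thinned to about the same number of transcripts (1407 to 1498 per cell). The members were selected on the values of genes in this table. A cell belonged to the group when its transcripts of 7 neuroblast genes (Sox11, Dcx, Igfbpl1, Neurod1, Tubb3, Stmn2 and Sox4) summed to 5 or more, when its sum over Eomes, Mfap4, Insm1, Ccnd2 and Igfbpl1 exceeded its sum over Calb2, Bhlhe22, Neurod2, Prdm8 and Stmn2, and when its sum over 10 mitosis genes was 1 or less. By this rule 100 of 1536 cells were early cells. The same sums gave 126 late neuroblasts, whose early sum did not exceed the late sum, and 28 cycling cells, which met the early condition but had a mitosis sum above 1. A further 5 cells of the neuroblast lineage met neither condition.

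In the adult dentate gyrus, radial glia-like stem cells give rise to intermediate progenitors, which divide a few times, leave the cell cycle as neuroblasts and mature into glutamatergic granule neurons. The T-box factor Eomes, also called Tbr2, marks the intermediate progenitors, Insm1 is a zinc finger factor of newly formed neuronal progenitors, and the D-type cyclin Ccnd2 drives the entry into the cell cycle that adult precursors depend on. Igfbpl1 and Dcx, a microtubule-binding protein of migrating neurons, appear as the cells become neuroblasts, and the calcium-binding protein Calb2 marks a later, postmitotic stage.

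The cells came from wild-type C57BL/6 mice. Hippocampal tissue was first depleted of neurons, and single live cells that did not stain for GluR1, a glutamate receptor subunit, or for Cd24, a surface protein of neuroblasts, were sorted into plates. Libraries were made by SORT-seq, which reads transcript 3' ends with a barcode for each cell and a unique molecular identifier (UMI) for each molecule. The 31 niche libraries fall into 5 numbered experiments, with no age in the labels. There was 1 further library of mice older than 12 months, treated in the same way apart from the library format. Another 1 held hippocampal cells sorted for GFP from a Nestin-GFP line, in which the promoter of the progenitor gene Nes drives the reporter. These 2 libraries, library H of experiment 2 and the libraries of experiment 5 had more wells and a larger pool of UMIs than the other niche libraries. The part of this format in the differences between groups was not tested. The gate against Cd24 bears on the members, since neuroblasts carry this protein, so their shares describe the sort and not the tissue. Per the labels, experiment 2 is a resequencing of its original libraries, and the number of mice behind an experiment is unknown. The p-values rest on the spread between experiments, estimated over many genes together, which may be in part technical.

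Levels below come from the full count tables of the same wells and are CPM, the transcripts of a gene scaled to a common total, summed over all cells of a group in an experiment, so they compare 1 gene between groups. Early cells had a median of 8473 transcripts, late cells 7128 and cycling cells 6104. The early cells of experiments 2, 3 and 4 held 369456, 116235 and 408247 transcripts in all. In the 6 late cells of experiment 3 there were only 27787, so a gene listed at 0 there may reach up to 108 CPM (the level of 3 counts, for counting error only).

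The label was checked against the genes that chose the cells, which is a description and no test. Eomes stood at 1119.9, 632 and 711 CPM in the early cells of experiments 2, 3 and 4, at 352, 291 and 125 CPM in the late cells and at 1405, 570.1 and 676 CPM in the cycling cells. Early cells were above late cells in each of these experiments, and early and cycling cells overlapped, with only 1 cycling cell in experiment 3. Ccnd2 was lower at each step from cycling to early to late cells, going from 1489, 3462 and 2114 CPM to 1027, 1453 and 812 CPM and then 161, 36.1 and 207 CPM. Insm1 lay at 854, 570.1 and 753, then 196, 182 and 204, then 52.5, 36.1 and 67.1 CPM in the same order, so early cells held an intermediate level of both. Mfap4, an extracellular matrix protein gene, varied more between experiments (403, 95.1 and 344 CPM in early and 130.2, 72.3 and 99.7 CPM in late cells). Igfbpl1 did not separate early from late cells, with 1373, 762 and 1234 against 1247, 656 and 1264 CPM. In transcripts of the same wells that are not in the thinned table, Eomes was at 829 ± 274 CPM in early and 246 ± 128 CPM in late cells (SD, n = 3 experiments), Ccnd2 at 1099 ± 338 and 129.5 ± 115 CPM and Insm1 at 196 ± 12.2 and 58.6 ± 9.05 CPM. Each of these 3 was higher in early cells in all 3 experiments, Mfap4 in 2 and Igfbpl1 in 1, so Igfbpl1 did not set early apart from late cells outside the values used in the choice.

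The shared neuroblast genes were carried by both stages. Sox11, a transcription factor of immature neurons, reached 3450.1, 3227 and 2782 CPM in early and 3963, 3539.9 and 3066 CPM in late cells, and 98 of 100 early cells held a UMI of it in the thinned table. Dcx was at 780.0, 478 and 644 CPM in early cells and 900.1, 1464 and 813 CPM in late cells, and Neurod1, the neurogenic helix-loop-helix factor, at 1312, 796 and 843 and 1991, 944 and 1413 CPM. Both were lower in early than in late cells of every one of the 3 experiments. Of the genes of the later stage, Calb2 was at 136, 51.9 and 96.3 CPM in early against 1188, 253 and 999.9 CPM in late cells. The microtubule regulator Stmn2 was at 438, 278 and 229.8 against 1039, 689 and 1125 CPM. In these 3 experiments neither gene overlapped between the groups. Bhlhe22, Neurod2 and Prdm8, transcription factor genes of postmitotic neurons, had means of 125 ± 33.6, 75.01 ± 49.99 and 132 ± 62.3 CPM (SD, n = 3 experiments) in early cells and of 623 ± 155, 371 ± 171 and 423 ± 133 CPM in late cells. Among the remaining genes of the rule, Sox4 had 1258 ± 266 against 1033 ± 311 CPM and Tubb3 873 ± 135 against 971 ± 311 CPM. The 10 mitosis genes (Mki67, Top2a, Ccna2, Ccnb1, Pbk, Racgap1, Cdk1, Birc5, Ube2c and Tpx2) summed to 276, 242 and 241 CPM in early cells, 146, 144 and 159.8 CPM in late cells and 4655, 9271 and 4395 CPM in cycling cells.

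**Figure D1:**
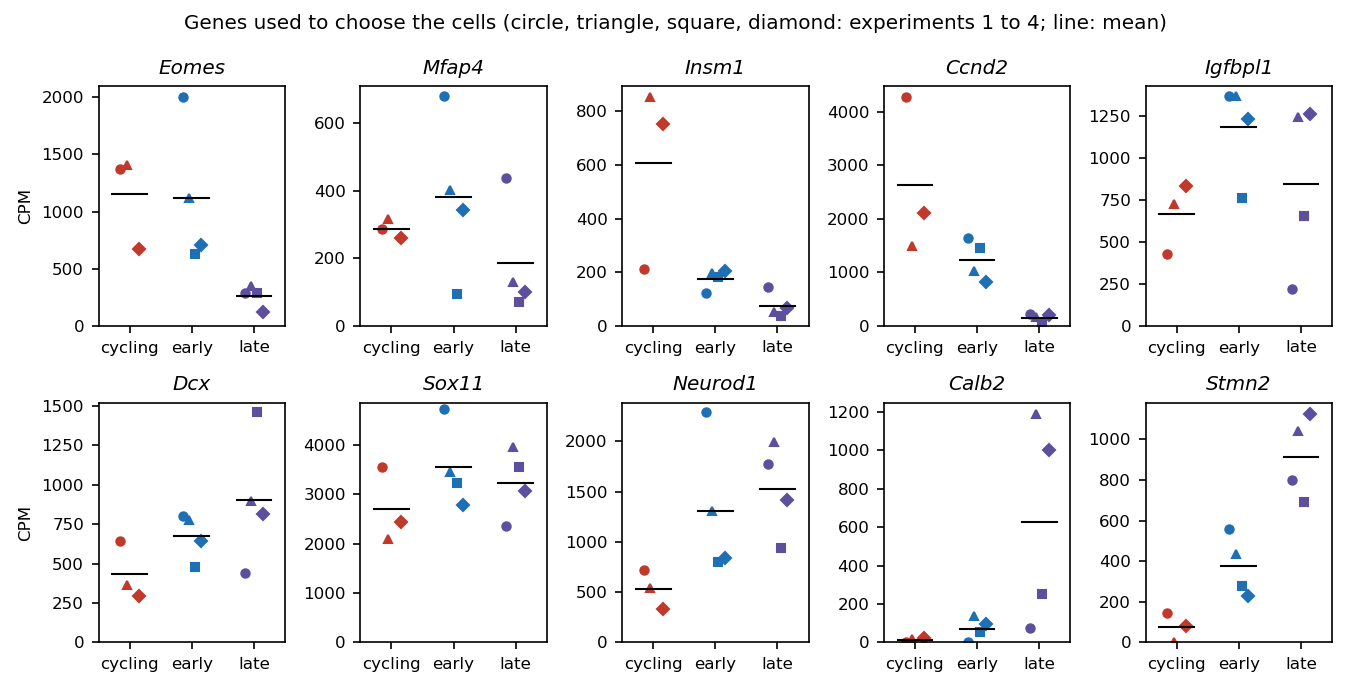
CPM (y axis) of 10 genes that were used to choose the cells, in cycling, early and late cells (x axis); each symbol is 1 experiment with at least 3 cells of that group and the line is the mean. Ccnd2 steps down from cycling to early to late cells and Stmn2 steps up, while Igfbpl1 and Sox11 overlap between early and late cells.

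By single cells, a UMI of Eomes was found in 62 of 100 early cells, 19 of 126 late cells and 20 of 28 cycling cells at equal depth. Cells with 3 or more microglia markers, which should lack the gene, held it in 16 of 315 cells (median of 3689.6 transcripts in the full tables). The source of these detections was not tested. Igfbpl1 was found in 79, Ccnd2 in 61, Mfap4 in 31 and Insm1 in 19 of the 100 early cells, against 9, 7, 6 and 0 of the 315 microglia-type cells. Of the 5 markers, 14 early cells held 1, 40 held 2, 26 held 3, 20 held 4 and 0 held all 5. No transcript profile of an early cell was identical to that of another.

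The members near the thresholds were few at the first condition and more at the second. The neuroblast sum ran from 5 to 41 with a median of 13, and 7 members lay at 5 while 6 cells with a sum of 4 met the other conditions. The early sum exceeded the late sum by only 1 in 19 members, and 23 cells with equal sums were counted as late. A mitosis sum of 0 was seen in 80 members and a sum of 1 in 20, and 7 cells at 2 were counted as cycling. When the wells were thinned anew from the count tables, 103 cells met the rule and 72 of the 100 members were among them, so membership of single cells near a threshold depended on the draw.

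Early cells came mainly from experiments 2, 3 and 4. They made up 12.2% (95% interval 8.97 to 16.2) of the 343 cells of experiment 2, 11.8% (95% interval 6.76 to 18.7) of the 127 cells of experiment 3 and 19.9% (95% interval 13.5 to 27.6) of the 136 cells of experiment 4, with exact binomial intervals that cover counting error only. Experiment 1 gave 3 of 377 cells (0.796%) and experiment 5 gave 0 of 126, with an exact interval of up to 2.89%. Over the 5 experiments the share was 8.94% ± 8.43 (SD, n = 5), so the spread was about as large as the mean. Within experiment 3 all 15 early cells came from the 4 libraries F1 to F4, which make up 1 plate by the labels, with 2 to 5 cells a library. The 7 libraries of its other plates that had cells in the thinned table gave 0 of 36 cells, and library E4 had none. The libraries of these other plates held 29427 to 93235 transcripts over all wells, against 125192 to 145384 in F1 to F4. The part of this difference was not tested. In experiment 2 the 5 libraries gave 5 to 12 each and in experiment 4 the 4 libraries gave 5 to 8. Among cells of the neuroblast lineage, early cells were 44.2% (95% interval 34.02 to 54.8) in experiment 2, 68.2% (95% interval 45.1 to 86.1) in experiment 3 and 39.1% (95% interval 27.6 to 51.6) in experiment 4, and these 3 intervals overlapped.

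**Figure D2:**
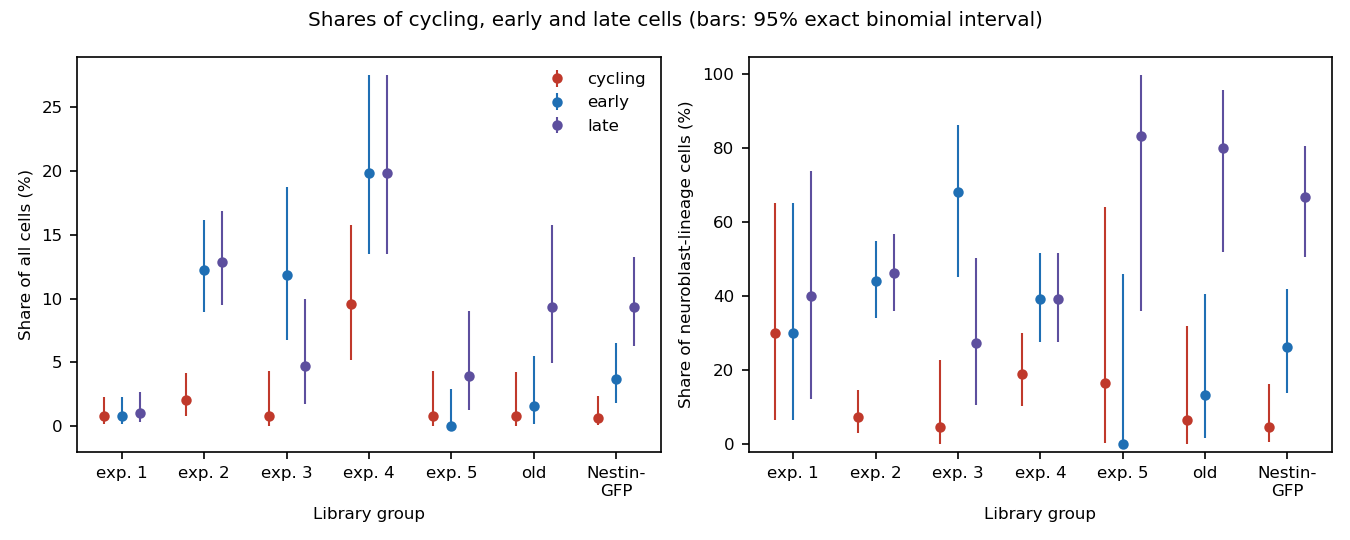
Share of cycling, early and late cells among all cells (left, %) and among cells of the neuroblast lineage (right, %) in each experiment, the old library and the Nestin-GFP library; bars are 95% exact binomial intervals. Early cells make up 11.8% to 19.9% of the cells of experiments 2 to 4 and at most 3.68% elsewhere.

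Early cells were next divided by whether the thinned table held a UMI of Eomes, as a description of how members differ among themselves. In experiments 2, 3 and 4, 28 of 42, 8 of 15 and 15 of 27 early cells held one. Both divisions carried Eomes in the full tables, at 1354, 704 and 967 CPM where it had been detected and 592, 539.9 and 468 CPM where it had not, so the division reflects sampling of transcripts in part. Of 31 other genes looked at, 3 were higher and 2 lower in the first division in all 3 experiments, and the rest differed in order between experiments. By sampling alone some of 31 genes would keep the same order in 3 experiments, so these counts are not read as a difference. Sox2, a stem and progenitor cell factor, was among the 3 (326, 628 and 409.7 against 248, 198 and 346 CPM). Calb2 was among the 2 (102, 46.04 and 45.6 against 212, 59.3 and 144 CPM). Dcx, Neurod1, Ccnd2 and Insm1 were among the rest. UMIs of Eomes and Dcx were found together in 30 early cells, Eomes alone in 32, Dcx alone in 23 and neither in 15. Both genes are in the rule that chose the cells, so these counts only describe the members.

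Early cells were compared with late neuroblasts of the same experiments, to describe what else differs between the stages. The fit used experiments 2, 3 and 4, which had at least 5 cells in both groups (84 early and 77 late cells), with the experiment as a block, and left out the 25 genes of the rule. The cells had been parted by genes that change together with many others, so the p-values do not say that an unselected stage was found. The fit shares its estimate of spread over genes. A small p therefore does not show that a single gene differed evenly across experiments. Of 7066 genes tested by edgeR's quasi-likelihood test with Benjamini-Hochberg adjustment, 275 (3.89%) passed an adjusted p of 0.05, with 99 (1.40%) higher and 176 (2.49%) lower in early cells, and the median log2 fold change of all genes was 0.02. Among the lists described below, 9 of 18 genes of G1 and S phase and 5 of 16 of chromatin packing were higher in early cells, and 10 of 24 genes of synapses, 10 of 24 of axon guidance and 10 of 34 of the neuronal cytoskeleton were lower. When only transcripts outside the thinned table that chose the cells were counted, 225 genes passed and 215 of them were among the 275. The count was smaller with other settings: DESeq2 called 49 genes, a fit that ignored the pairing of groups by experiment called 3, and leaving out experiment 2 or experiment 4 left 54 or 52. By DESeq2 the lists below held 4 called genes of axon guidance, 3 of RNA binding, 2 each of the chromatin packing, astrocyte and stem cell, synapse, microtubule, immediate early and sort antigen lists, and 1 each of the replication, Notch and late neuronal factor lists. DESeq2 called 0 in the proneural, chromatin regulator, cell cycle exit and glycolysis lists (7, 4, 1 and 2 at an unadjusted p under 0.05), where edgeR called 5, 3, 1 and 2.

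**Figure D3:**
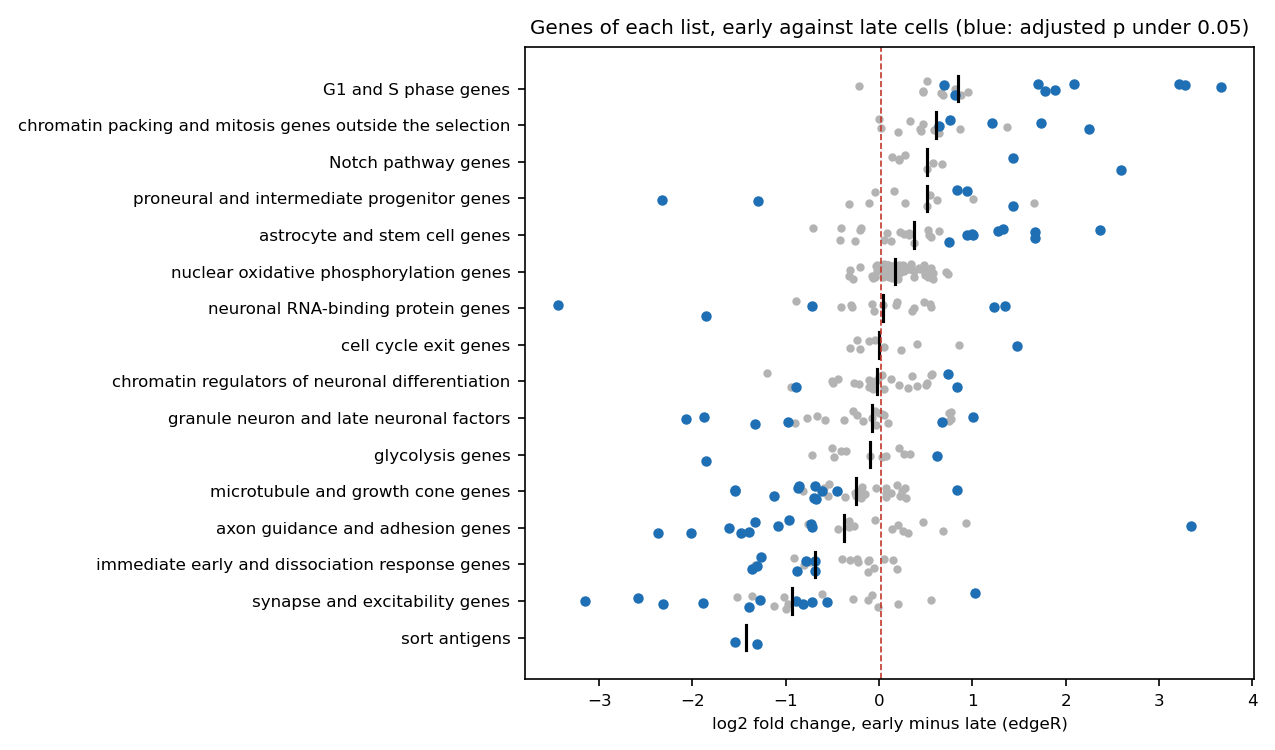
log2 fold change, early minus late, of the genes of 16 lists (x axis, edgeR), 1 point a gene, blue where the adjusted p was under 0.05; black bars are list medians and the dashed line is the median of all 7066 genes. Replication and chromatin genes lie to the right, with medians of 0.85 and 0.61, and synapse genes and sort antigens to the left.

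Genes of G1 and S phase were higher in early than in late cells, with cells of a mitosis sum above 1 left out of both groups. The 10 mitosis genes were themselves higher in early cells, at 276, 242 and 241 against 146, 144 and 159.8 CPM in experiments 2, 3 and 4. The rule also used the cyclin gene Ccnd2 to choose early cells. Of 18 tested, 9 rose and 0 fell, against 1.40% of all genes called higher, with a list median of 0.85. Mcm6, a subunit of the replicative helicase (chromosome 1, 128331590 to 128359664, GRCm38), stood at 187, 245 and 143 CPM in the early cells of experiments 2, 3 and 4 and at 55.2, 0 and 54.1 CPM in the late cells. All 3 early values lay above all late values, with a log2 fold change of 1.70 (SE 0.33, adjusted p = 2.8e-05) by edgeR. Mcm2 of the same helicase (log2 fold change 3.66, SE 0.67, adjusted p = 6.9e-06 by edgeR) rested on 67 transcripts in early and 4 in late cells, a ratio of 14.6 times (95% counting interval 5.45 to 55.2). Rpa2, a subunit of the single-strand binding complex, rose by 2.09 on the log2 scale, and the sliding clamp Pcna, Mcm3, Mcm5, the maintenance methylation factor Uhrf1, the ribonucleotide reductase subunit Rrm2 and the kinase gene Cdk4 were the other genes called. This group rested on part of the cells: with a neuroblast sum of at least 8 in place of 5, 0 of 11 tested passed by edgeR (2 at an unadjusted p under 0.05) and the median was 0.03. Without experiment 2, 0 of 15 passed (10 at an unadjusted p under 0.05) and the median was 1.10.

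Because these genes moved together, the 250 bases before their annotated starts were searched for motifs that E2F factors, the regulators of S phase genes, are known to bind (TTTCCCGC or TTTGGCGC, both strands, a search chosen after the calls were seen). Of the 9 called genes, 2 held a match, against 168 of 5377 tested genes with a promoter entry (3.12%). Other motifs were searched as well, and the T-box motif AGGTGT also matched 2 of the 9, against 10.8% of tested genes, and the E-box CAGATG 0 of the 9, against 10.9%. A match is a description of letters and not a site. The windows of these 2 genes, from RefSeq on GRCm38.p6, are given 5′ to 3′ on the gene's strand with the matches in capitals, at chr1:128359706-128359955, minus strand for Mcm6 and at chr8:75109259-75109508, plus strand for Mcm5.
Mcm6: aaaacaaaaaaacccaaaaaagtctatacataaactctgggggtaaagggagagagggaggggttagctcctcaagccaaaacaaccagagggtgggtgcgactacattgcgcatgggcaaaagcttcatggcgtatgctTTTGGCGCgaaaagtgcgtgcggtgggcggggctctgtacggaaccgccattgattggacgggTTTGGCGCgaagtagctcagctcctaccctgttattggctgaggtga
Mcm5: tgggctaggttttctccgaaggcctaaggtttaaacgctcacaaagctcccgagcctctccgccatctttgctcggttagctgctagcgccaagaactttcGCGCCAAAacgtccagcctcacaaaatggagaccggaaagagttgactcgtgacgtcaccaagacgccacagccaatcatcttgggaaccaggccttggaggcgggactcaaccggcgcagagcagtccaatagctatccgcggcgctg
Mcm6 held TTTGGCGC at 2 places, and Mcm5 held its reverse complement once.

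Chromatin proteins of dividing and undifferentiated cells followed. Of 16 tested genes of chromatin packing and mitosis outside the rule, 5 rose and 0 fell (median 0.61). Hmgn2, a nucleosome-binding protein, was at 3490.1, 2379 and 2183 CPM in early and 1053, 508 and 748 CPM in late cells, and every early value was above every late value. Its log2 fold change was 1.73 (SE 0.15, adjusted p = 9.2e-26) by edgeR, and it was also called by DESeq2. Hmgb2, a DNA-bending protein of proliferating cells, reached 226, 361 and 183 against 30.3, 72.1 and 54.1 CPM (2.25 on the log2 scale), and the histone variants H2afv and H2afz and the related Hmgb1 were also called. Hmgn2, Hmgb1 and H2afz have processed copies elsewhere in the genome, and no label or file header read here states how reads shared with such copies were counted.

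Some progenitor, Notch and glial genes were higher in early than in late cells. Against astrocyte-type cells the lists differed. The summed astrocyte and stem cell genes stood at 6987 ± 775 CPM in early and 84438 ± 19114 CPM in astrocyte-type cells (SD, n = 3 experiments). Notch pathway genes summed to 995 ± 199 and 1630 ± 381 CPM. Proneural and intermediate progenitor genes were higher in early cells, at 3343 ± 288 against 2111 ± 95.2 CPM. Sox2 had 302, 439.9 and 377 CPM in early and 205, 0 and 189.9 CPM in late cells (log2 fold change 0.95, SE 0.23, adjusted p = 0.0018 by edgeR), with no overlap. Notch1, the receptor that keeps precursors undifferentiated, had 106, 174 and 73.9 against 24.8, 0 and 7.72 CPM (log2 fold change 2.60, SE 0.49, adjusted p = 1.6e-05 by edgeR), and Mfng, a glycosyltransferase that modifies Notch, 133, 121 and 136 against 57.9, 0 and 46.4 CPM. These were the 2 of 9 tested Notch pathway genes that rose, none fell, and the median of the 9 was 0.52. The Notch targets Hes1 and Hes5 each had a UMI in 1 of 100 early cells at equal depth, against 38 and 70 of 320 astrocyte-type cells (3 or more astrocyte markers). Of 15 proneural and intermediate progenitor genes, Sox2, Mfng and the chromatin remodeller Chd7 rose and the helix-loop-helix factor Nhlh2 and the kinase gene Plk2 fell. Nhlh2 is also among the Cajal-Retzius markers described below. Without experiment 4 neither Notch1 nor any of these 5 genes passed by edgeR (Plk2 was then below the filter on low counts). With a neuroblast sum of at least 8 Sox2, Chd7 and Nhlh2 did not pass and Notch1 was below the filter. Neurog2, a proneural factor of progenitors, was found in 10 of 100 early cells, against 1 of 126 late cells and 4 of 28 cycling cells, and was below the filter on low counts in the comparison with late cells.

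Of 27 tested astrocyte and stem cell genes, 9 rose and 0 fell (median 0.38). The glutamate transporter Slc1a3 was at 374, 482 and 356 CPM in early and 82.8, 181 and 218 CPM in late cells (log2 fold change 1.33, SE 0.23, adjusted p = 2.0e-06 by edgeR). The acyl-CoA-binding protein Dbi (1.67) and the metallothionein Mt2 (2.37) were the most clearly changed, and Fabp7, Vim, Mt1, Thrsp and Ptprz1 were called as well as Sox2. The summed level of 10 astrocyte markers was 1512 ± 319 CPM in early and 1197 ± 158 CPM in late cells (SD, n = 3 experiments), against 27789 ± 7591 CPM in astrocyte-type cells, and none of the 10 was at 0 in either group. At least 3 astrocyte markers were detected in 19 of 100 early cells. With all cells that held 3 markers of another class left out, 6 of 25 tested rose, Dbi, Slc1a3, Mt2, Fabp7, Vim and Mt1, and Sox2 did not pass.

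Genes of synaptic transmission and excitability were lower in early cells. Of 24 tested, 10 fell, 1 rose, and the list median was -0.94, against 2.49% of all genes called lower. The AMPA receptor subunit Gria2 was at 648, 853 and 780.3 CPM in early and 1389, 2882 and 2229 CPM in late cells, without overlap (log2 fold change -1.39, SE 0.15, adjusted p = 1.0e-16 by edgeR). Camk2b, a calcium-dependent kinase of synapses, was at 16.2, 60.6 and 17.3 against 204, 289.7 and 177 CPM (log2 fold change -3.15, SE 0.38, adjusted p = 9.8e-14 by edgeR), and both were called by DESeq2 as well. Syn2, a synaptic vesicle protein, went the other way, with 379 ± 73.9 CPM in early and 134 ± 85.5 CPM in late cells (SD, n = 3 experiments) and a log2 fold change of 1.03.

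Axon guidance and adhesion genes also fell, 10 of 24 tested, with 1 that rose and a median of -0.38. The cell adhesion molecule Chl1 was at 155, 262 and 375 CPM in early and 669, 435 and 1028 CPM in late cells (log2 fold change -1.61, SE 0.19, adjusted p = 8.2e-14 by edgeR). Islr2, a membrane protein of growing axons (-2.02), and the contactin Cntn2 (-2.37) had no overlap between groups either. Robo2, a receptor for Slit guidance cues, was the gene that rose, on 50 transcripts in early and 4 in late cells (log2 fold change 3.34, SE 0.72, adjusted p = 3.5e-04 by edgeR). That is a ratio of 10.9 times (95% counting interval 4.01 to 41.6). Among 34 microtubule and growth cone genes, 10 fell and 1 rose (median -0.25). The axonal microtubule protein Mapt was at 257, 156 and 181 CPM in early and 677, 290.0 and 639.9 CPM in late cells (log2 fold change -1.54, SE 0.20, adjusted p = 3.6e-11 by edgeR), the tubulin-binding protein Stmn4 (-1.54 on the log2 scale) and the growth cone protein Basp1 (-0.85) fell, while Nrn1, a secreted neurite growth factor, rose by 0.83.

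Among RNA-binding proteins of neurons and late neuronal factors, genes passed in both directions. The list of 19 RNA-binding protein genes had 2 that rose, 3 that fell and a median of 0.04. Elavl4, an RNA-stabilising protein of new neurons, was higher in early cells, at 943, 802 and 740.0 against 405, 181 and 353 CPM (log2 fold change 1.23, SE 0.18, adjusted p = 2.9e-09 by edgeR), as was Khdrbs3 (1.35). The splicing factor Rbfox1 was at 13.5, 17.2 and 9.82 against 121, 181 and 144 CPM in early and late cells (log2 fold change -3.44, SE 0.47, adjusted p = 2.2e-10 by edgeR), and Celf4 (-1.85) and Rbfox2 (-0.72) were lower too. Of 25 granule neuron and late neuronal factors 4 fell and 2 rose (median -0.07). The LIM-domain protein Lmo4 was at 59.5, 104 and 69.1 CPM in early and 224, 217 and 298 CPM in late cells (-1.87 on the log2 scale), the helix-loop-helix factor Neurod6 at 32.5, 34.5 and 32.1 and 105, 72.3 and 193 CPM (-2.07), and Id2 and Myt1l fell as well. Lhx2, a LIM-homeobox factor of the developing cortex, rose by 0.67 and Myt1 by 1.01. Tbr1, the T-box factor that follows Eomes in glutamatergic lineages, was at 193, 129.6 and 223 CPM in early and 259.8, 108 and 151 CPM in late cells, with overlap. Prox1, which specifies granule neurons, was found in 5 of 100 early and 15 of 126 late cells and did not pass (log2 fold change -0.90, adjusted p = 0.2 by edgeR).

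Immediate early genes and the antigens of the sort were lower in early cells. Of 23 immediate early and dissociation response genes 7 fell and 0 rose (median -0.68), though without experiment 2 the count was 2 and the median -0.16. Fos, an activity- and stress-induced transcription factor, was at 307, 559.6 and 1213 CPM in early and 1328, 1323 and 1899 CPM in late cells, and its level in early cells differed about as much between experiments as between groups (log2 fold change -1.27, SE 0.16, adjusted p = 3.3e-12 by edgeR with experiment as block). Fosb (-1.36 on the log2 scale) and Egr1 (-0.88) fell, and Dusp1, Jund, Rhob and Ier2 were the others. Cd24a, which encodes the surface protein Cd24, was at 508, 348 and 473 CPM in early and 1129, 690.3 and 1397 CPM in late cells (log2 fold change -1.30, SE 0.17, adjusted p = 9.3e-12 by edgeR). Gria1, which encodes GluR1, was at 97.9, 104 and 61.7 and 226, 399 and 213 CPM (log2 fold change -1.54, SE 0.28, adjusted p = 5.4e-06 by edgeR). Both transcripts were thus present in cells that had been sorted as negative for the proteins, less in early than in late cells in each experiment.

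**Figure D4:**
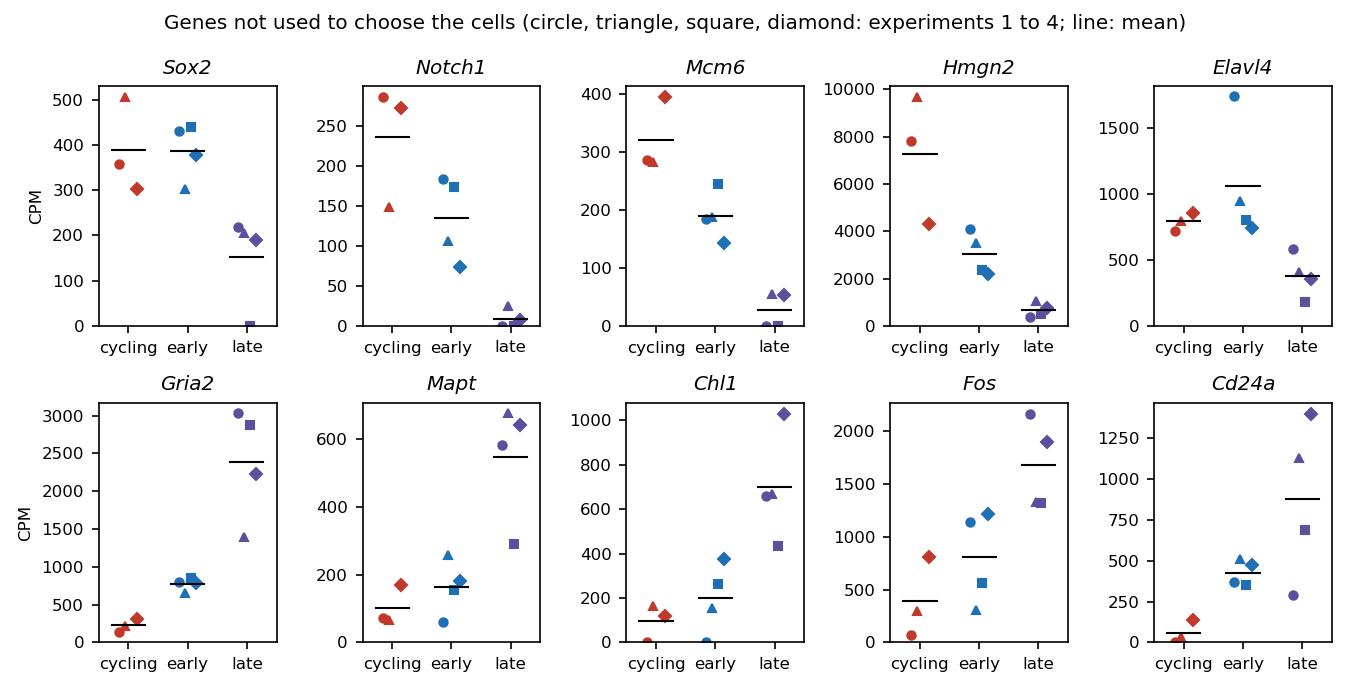
CPM (y axis) of 10 genes that were not used to choose the cells, in cycling, early and late cells (x axis); each symbol is 1 experiment with at least 3 cells of that group and the line is the mean. Notch1, Mcm6 and Hmgn2 step down toward late cells, Gria2 and Cd24a step up, and Elavl4 lies higher in the early cells than in the late cells of each experiment.

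Few metabolic and cell cycle exit genes passed the test. Of 72 nuclear oxidative phosphorylation genes 0 passed the test by edgeR in either direction (7 at an unadjusted p under 0.05, and 0 called by DESeq2), with a median of 0.17. Among 13 glycolysis genes Gapdh rose (0.62) and the phosphofructokinase Pfkp fell (-1.86). Among 10 cell cycle exit genes only the RNA-binding protein gene Zfp36l1 passed, at 89.6, 285 and 44.4 CPM in early and 49.7, 0 and 12.8 CPM in late cells, with overlapping groups. Of 28 chromatin regulators of neuronal differentiation, Chd7 (0.84) and the corepressor Rcor2 (0.74) rose and Actl6b, the neuronal subunit of the BAF remodelling complex, fell (-0.89).

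Outside the lists, the largest differences with at least 100 CPM in the higher group were on both sides. Higher in early cells were Trp53i11 (2.35), with 239.8, 322 and 267 CPM in early against 41.4, 36.1 and 59.5 CPM in late cells, the filopodial motor Myo10 (2.35), the lysosomal transporter Abcb9 (2.19), the junction scaffold Magi1 (1.91), Ube2ql1 (1.71), Efhd2 (1.71), Rftn2 (1.67) and Mpped1 (1.56). Lower in early cells was Kcnk1, a background potassium channel, at 13.5, 17.2 and 7.36 CPM in early and 226, 253 and 137 CPM in late cells (log2 fold change -4.01, SE 0.45, adjusted p = 9.3e-16 by edgeR). The receptor phosphatase Ptpro had 1 transcript in early and 53 in late cells, a ratio of 60.7 times (95% counting interval 10.4 to 2442). Elmod1 (-3.22), the noncoding RNA Snhg11 (-2.57), Zfp385b (-2.55), C77370 (-2.43), the adhesion molecule Cadm2 (-2.37) and the Rac activator Elmo1 (-2.10) made up the rest. These values are log2 fold changes.

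Early cells were also set against the cycling cells of experiments 1, 2 and 4, which had at least 3 cells in both groups (72 early and 23 cycling cells). Most tested genes of chromatin packing and replication were lower in early cells, and Gria2, Cd24a and 4 of 31 microtubule and growth cone genes were higher. Of 2646 genes tested by edgeR 126 (4.76%) passed, with 33 (1.25%) higher and 93 (3.51%) lower in early cells. Since the mitosis sum separated the groups, the loss of genes that accompany mitosis follows from the choice and is given as a description. In the list of chromatin packing and mitosis genes outside the rule, 20 of 22 were lower (median -2.22), with Hmgb2 at 306, 226 and 183 CPM in early and 1909, 2530.1 and 1086 CPM in cycling cells of experiments 1, 2 and 4 and H2afz at 554, 679 and 732 against 4448, 4159.6 and 2663 CPM. The centromere histone Cenpa was at 0, 59.7 and 9.82 against 357, 1232 and 358 CPM. Of 11 G1 and S phase genes 8 were lower (median -1.63), led by Pcna with 183, 247 and 306 against 1984, 449 and 1154 CPM, the chromatin protein Dek (-2.52 on the log2 scale) and Rrm2 (-2.36). Pcna, Rrm2, Mcm5, Hmgn2, Hmgb2, H2afz, H2afv and Hmgb1 were called in both comparisons, which share their early cells. Each was lower in early than in cycling cells and higher than in late cells. An intermediate level follows from naming genes called in both, so it is given as a description. In experiments 2 and 4, which enter both comparisons, the level of Pcna, Rrm2, Hmgn2, Hmgb2 and H2afz was intermediate in early cells.

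Among the largest differences outside the lists were genes of the same kind, the mitotic kinesins Kif4 and Kif22, the mitotic kinase Plk1, the anaphase activator Cdc20, the cyclin Ccnb2, Fam64a and Ckap2l. Plk1 rested on 2 transcripts in early and 37 in cycling cells, a ratio of 62.4 times (95% counting interval 16.1 to 535), and Kif4 on 1 and 27, a ratio of 91.1 times (95% counting interval 15.02 to 3730.1). For Kif22 there were 2 transcripts in early cells, and the ratio was 48.9 times (95% counting interval 12.4 to 423). The Polycomb methyltransferase Ezh2 was lower in early cells, at 122, 114 and 203 against 357, 365 and 497 CPM (-1.45 on the log2 scale), and the chaperone Hsp90aa1 fell (log2 fold change -0.73).

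Some genes of neuronal differentiation were higher in early than in cycling cells. Hes6, a helix-loop-helix cofactor of neurogenesis, and Gadd45g, a growth arrest gene, were the proneural list members that fell, with log2 fold changes of -1.24 and -1.14 and overlapping groups, while the RNA-binding protein Elavl2 and the tachykinin Tac2 rose (1.16 and 1.29). Gria2 was at 802, 648 and 780.3 CPM in early and 143, 216 and 315 CPM in cycling cells (log2 fold change 1.51, SE 0.31, adjusted p = 4.5e-05 by edgeR), so it was above cycling cells and below late cells. Among 31 microtubule and growth cone genes 4 rose and 0 fell, with Basp1 at 876, 868 and 1413 against 576, 115 and 534 CPM and Kif21b and Tubb2b at 1.51 and 0.97 on the log2 scale. The guidance cue Sema3c rose by 2.48, the neuronal splicing factor Rbfox3 by 1.39 and the cortical homeobox factor Emx1 by 1.31. Cd24a was at 368, 508 and 473 CPM in early and 0, 32.9 and 139 CPM in cycling cells (log2 fold change 2.42, SE 0.41, adjusted p = 4.4e-07 by edgeR). Of 18 astrocyte and stem cell genes 0 passed by edgeR or DESeq2 in either direction (median -0.10, with 3 at an unadjusted p under 0.05 by edgeR). Outside the lists Atp13a2, Flrt1, Calcoco1, AW549877, Ptprd, Cadm3, Ppp2r2b and Nrep were higher in early cells, by 1.58 for Nrep to 2.67 for the lysosomal ATPase Atp13a2. The calls were fewer with DESeq2 (62, of which 5 higher in early cells), without experiment 4 (32) and in a fit that ignored the pairing by experiment (53, of which 2 higher), so the genes higher in early cells depended most on the settings.

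Markers of other cells were present at low levels and were of a like size in early and late cells for most sets. Over all 3 experiments microglia markers summed to 555, 753 and 224 CPM in early and 657, 253 and 421 CPM in late cells, and oligodendrocyte precursor markers to 698, 398 and 251 and 774, 325 and 126 CPM. Markers of mature granule and pyramidal neurons summed to 742 ± 92.9 CPM in early and 855 ± 87.5 CPM in late cells (SD, n = 3 experiments). In cycling cells they summed to 350 ± 96.6 CPM. At equal depth 65 of 100 early and 81 of 126 late cells held a UMI of this set. Of the endothelial and mural set Cldn5, Pecam1 and Rgs5 were at 0 in early cells, and of the ependymal set Foxj1, Ccdc153, Rsph1 and Sntn. Markers of Cajal-Retzius cells, early-born neurons that also carry Calb2, were higher in late cells. Without Calb2 their sum was 117, 0 and 116 CPM in early and 592, 72.1 and 189 CPM in late cells, and in the late cells of experiment 2 it included 159 CPM of Reln, their secreted marker, whereas Lhx1, Lhx5 and Trp73 were at 0 in all early cells. Much of the sum was Nhlh2, which is also in the proneural list. Without it the sums were 40.7, 0 and 19.6 CPM in early and 350.4, 0 and 25.7 CPM in late cells, so the remaining markers differed mainly in experiment 2. Their part in the differences between early and late cells was not tested. With every cell that held 3 or more markers of another class left out (26 early and 38 late cells over all groups), 233 genes passed, 202 of them among the 275.

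Dlx genes of the interneuron lineage were found mainly in experiment 4. A transcript of Dlx1, Dlx2 or Dlx5, homeobox factors of GABAergic precursors, was found in the full tables in 6 of 27 early cells of experiment 4, in 1 of 42 of experiment 2 and in 0 of 15 of experiment 3. Depth differed as well, with a median of 14614 transcripts per early cell in experiment 4 against 8901 and 6095 in experiments 2 and 3, and its part in these counts was not tested. Scaled to the total, Dlx1 stood at 16.4, 0 and 114 CPM and Dlx2 at 2.71, 0 and 140.4 CPM in the early cells of experiments 2, 3 and 4, where 3 counts are worth 25.8 CPM in experiment 3, and Dlx2 at 321 CPM in the cycling cells of experiment 4. All 6 cells also held transcripts of Eomes in the full tables, 2 of them in the thinned table. Gad1, which makes GABA, was found in 1 of 100 early cells.

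In mice older than 12 months the single library gave 2 early cells among 128, 1.56% (95% interval 0.190 to 5.53), beside 12 late cells and 1 cycling cell. Early cells were 13.3% of its 15 neuroblast-lineage cells, with an exact interval of 1.66 to 40.5% that overlaps those of experiments 1, 2, 4 and 5. With 1 library and 2 cells no test was made and age, library, library format and sort cannot be told apart. The 2 cells carried Eomes at 1464 CPM, Ccnd2 at 2041 CPM and Neurod1 at 1727 CPM.

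The Nestin-GFP library gave 11 early cells among 299, 3.68% (95% interval 1.85 to 6.49), and these were 26.2% (95% interval 13.9 to 42.04) of its 42 neuroblast-lineage cells. They carried Eomes at 585 CPM, Ccnd2 at 1062 CPM, Igfbpl1 at 1061 CPM and Cd24a at 871 CPM. Eomes lay below and Cd24a above its level in early cells of experiments 1 to 4. A transcript of the reporter, listed as eGFP, was found in 6 of 11 early cells, 5 of 28 late cells and 136 of 257 cells outside the neuroblast lineage. Nes itself was found in 2 of 100 early cells of all groups at equal depth, both from this library. The mature oligodendrocyte markers of these early cells summed to 2351 CPM, against 271, 155 and 108 CPM in experiments 2, 3 and 4, and those of the late cells of the same library to 2377 CPM. With the Nestin-GFP cells as a further block, the comparison of early with late cells called 281 genes, 230 of them among the 275.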

How the data were processed

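Single cells of 31 niche libraries (5 experiments), 1 old and 1 Nestin-GFP library were used. Per the submitters' processing notes, reads were mapped to mm10 with BWA 0.6.2-r126; no source read here names the counting tool or annotation. The deposited tables of each library hold estimated counts, which the authors corrected for UMI saturation (per the file headers and values, whole UMI numbers were recovered at a tolerance of 0.05), and which were rounded per cell and summed without spike-ins and mitochondrial genes. The deposited table of thinned cells (1536 cells, 12469 genes) holds a score, a whole number plus 0.1, from which 0.1 was subtracted. It chose the cells, also those called astrocyte-type and microglia-type, and the division by Eomes. The counts of cells with a UMI at equal depth came from it as well. Levels in CPM and the main fits took their counts from the tables of each library. No doublet caller was run.

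Sums per class and experiment were tested with edgeR 4.0.16 (R 4.3.3; TMM, filterByExpr, quasi-likelihood, Benjamini-Hochberg adjusted p under 0.05, experiment as block), leaving out the 25 genes of the rule after library sizes were set. Each value needed at least 5 cells (late) or 3 cells (cycling) of both classes, and DESeq2 1.42.0 was an alternative. The experiment numbers come from the labels; deviations of early and late sums from their class means correlated at 0.469, 0.281 and 0.305 within an experiment and at -0.311 to -0.0914 across experiments, and of early and cycling sums at 0.0645, 0.196 and 0.242 within. Shares of cells have exact (Clopper-Pearson) 95% intervals and no test. Tested on simulated data, the late comparison (7108 genes) recovered 59.6% of 4-fold and 3.06% of 2-fold changes with 1 false call, and the cycling comparison (2750 genes) 45.9% and 4.76% with 0. The simulation gave every gene the same dispersion and no difference between experiments, so these shares do not give the recovery in the real data.

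Members and gene lists were chosen with earlier results of these data known. The text names the genes of the rule, Cd24a and Gria1, up to 3 called genes per list and direction with the smallest p, and outside the lists 8 per direction with the largest fold change among genes of at least 100 CPM that moved alike in every experiment; other genes of 16 lists are named after their values were seen. Some genes that this rule names are not reported here. Coordinates come from GENCODE on GRCm38 and promoters from RefSeq. The fits on transcripts outside the thinned table and with the plate as block, like the motif search, were chosen after seeing the data.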

Additional observations from a re-analysis of the deposited data

How the results depend on the processing

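The comparison of early with late cells called 275 genes, and 49 with DESeq2, 128 with a neuroblast sum of at least 8 and 20 of 744 tested in the thinned table. Leaving out 1 experiment gave 52 to 381, with 54 without experiment 2 and 52 without experiment 4. Without the block that pairs the groups by experiment 3 genes passed. The comparison with cycling cells called 126 genes, and 62 with DESeq2, 76 with a sum of at least 8, 9 of 189 in the thinned table and 59 with wells thinned anew; leaving out 1 experiment gave 32 to 105, with 32 without experiment 4, and without the block 53 passed. The share of these calls that were higher in early cells was 26.2%, against 8.1% with DESeq2, 3.8% without the block and 15% with no filter on low counts. Fewer transcripts were counted in the thinned table and fewer samples in the fits without an experiment; for the other settings the cause was not tested. The remaining settings, TMM against DESeq2's size factors among them, gave 187 to 391 and 86 to 160 genes. Early cells as a share of neuroblast-lineage cells, another denominator, were 30%, 44.2%, 68.2% and 39.1% in experiments 1 to 4, 13.3% in the old and 26.2% in the Nestin-GFP library. In experiment 4 the share was 11.8% with a margin of 3 between the early and late sums and 29.4% with no limit on the mitosis sum, and in the Nestin-GFP library 1.67% with that margin and 1.82% without cells holding markers of other classes. The log2 fold change of AW549877, early against cycling, changed sign with wells thinned anew, to -0.0927. Adding the old and Nestin-GFP libraries to the comparison with cycling cells was not run, since they hold too few cycling cells. In data simulated with the same dispersion for every gene and no difference between experiments, most 2-fold changes were not recovered. Real genes and experiments differ in both, so this does not give the recovery in the real data. The parts of depth and of the number of experiments in the simulated result were not tested apart.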
